A study of Mus musculus with 11 samples.

Results

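The ceramide and sphingosine kinase pathway was represented by 10 genes, chosen by symbol for their place in the pathway and found in the expression table through their Entrez Gene identifiers, out of 23835 named genes measured. The genes were Cers2, Cers4, Cers5 and Cers6, which encode ceramide synthases, Asah1, Cerk, Ugcg, Sphk1, Sphk2 and Sgpl1, and each had 1 row in the table. The samples were mouse mammary tumour cells of the genotype MMTV-rtTA;TetO-Wnt1, in which the MMTV promoter expresses the doxycycline-dependent activator rtTA in mammary epithelium and the activator turns on Wnt1. In all 3 groups the cells carried H2B-eGFP, a fluorescent histone, grew orthotopically in female nu/nu mice, which lack a thymus and its T cells, and were isolated as GFP-positive cells. Primary tumour cells (4 arrays) came from untreated mice kept on doxycycline. Residual lesion cells (3 arrays) were taken 28 days after doxycycline withdrawal, which inhibited Wnt1, and recurrent tumour cells (4 arrays) from tumours that regrew after the same withdrawal, for which no day is given. Whether each array stands for its own animal is not stated in the labels, and the p-values then reflect only how far these samples differ, which could be technical.

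Ceramide is the hub of sphingolipid metabolism. Ceramide synthases join a fatty acid to a sphingoid base, and each of them prefers fatty acids of a certain length. Ceramide is then used for sphingomyelin or, through Ugcg, for glycosphingolipids, is phosphorylated by ceramide kinase (Cerk), or is split by ceramidases such as Asah1 into sphingosine. Sphingosine kinases (Sphk1 and Sphk2) turn sphingosine into sphingosine 1-phosphate, a signalling lipid with its own receptors, and the lyase Sgpl1 breaks that lipid down for good. Ceramide is widely described as a lipid of growth arrest and cell death, and sphingosine 1-phosphate as one of survival and proliferation.

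The members that passed the test in any comparison were Cers2 and Sphk1, and the DNA before their starts is shown because transcription of each gene can start at its end. Each is the 250 bases before the most upstream start listed for the gene in RefSeq promoter sequences of GRCm38.p6, at chr3:95314940-95315189 on the plus strand for Cers2 and chr11:116530850-116531099 on the plus strand for Sphk1. Capitals mark matches, on either strand, to the GC box (GGGCGG), the CCAAT box (CCAAT), the E-box (CACGTG), the AP-1 motif (TGANTCA) or the core of the TCF/LEF motif (CTTTGA), the motif of the factors through which Wnt signals act.
Cers2: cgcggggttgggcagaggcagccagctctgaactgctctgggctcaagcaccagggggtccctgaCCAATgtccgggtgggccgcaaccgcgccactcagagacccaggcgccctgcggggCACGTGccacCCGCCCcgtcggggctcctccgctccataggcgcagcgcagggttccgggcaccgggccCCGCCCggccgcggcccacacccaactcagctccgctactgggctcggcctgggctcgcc
Sphk1: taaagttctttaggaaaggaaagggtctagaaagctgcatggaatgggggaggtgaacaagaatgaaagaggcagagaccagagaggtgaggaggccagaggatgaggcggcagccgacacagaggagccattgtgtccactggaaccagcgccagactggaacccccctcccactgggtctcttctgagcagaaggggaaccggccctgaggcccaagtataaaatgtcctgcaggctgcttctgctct
The Cers2 window held 2 GC boxes, 1 CCAAT box and 1 E-box, and none of these motifs was found in the Sphk1 window, which has no capitals. For both genes the annotated gene overlaps the window, so other transcripts may start farther upstream. Of the 9 members with a listed window, 6 had a GC box, against 33% of 27025 such windows in the genome, 2 had a CCAAT box (34.5% of all windows) and 2 an E-box (6.04%). None of the 9 had the AP-1 motif (6.85% of all windows) or the TCF/LEF core (14.1%). The second window with both an E-box and a CCAAT box was that of Cers6. The base composition of the shown windows differed, with 74.8% G and C for Cers2 and 55.6% for Sphk1. These matches describe letters only and were not related to binding of any factor.

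Each value was a log2 signal, so a difference of 1 is a 2-fold change, and signals of different genes are not compared with each other. The 95th percentile of 1066 olfactory receptor genes, taken as silent in mammary tissue, marked the background on each array. It lay at 3.96 to 4.02 on the primary arrays, 4.34 to 4.38 on the residual arrays and 4.03 to 4.09 on the recurrent arrays. The residual arrays also had a narrower spread of signals, with interquartile ranges of 3.52 to 3.57, against 3.73 to 3.81 on the primary arrays, so the scale of the residual arrays differed from that of the others. Of the 10 members, 9 read above it on all 11 arrays. Cers4 did so on all but 1 residual array and stayed close to it. The tumour cells had the simple-epithelium keratin Krt18 at 10.42 ± 0.19, 8.09 ± 0.91 and 9.84 ± 0.72 in primary, residual and recurrent cells (mean ± SD, n = 4, 3 and 4). The epithelial surface gene Epcam, however, was above background on no primary or recurrent array, and on at least 1 residual array. Arrays correlated at 0.968 to 0.989 within groups and at 0.945 to 0.977 between groups (Pearson's r across genes, which are not independent). Precision is limited by the few arrays in each group.

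Sphk1 and Cers2 were lower in residual cells than in primary tumour cells, by 1.83-fold and 1.81-fold, and Cers2 was also lower in recurrent cells than in primary cells, by 1.66-fold. No member was higher in any comparison at an adjusted p under 0.05 in limma, adjusted over all genes. In residual against primary cells 2 of 10 members were called, while 12.4% of all genes were called, 7.61% lower and 4.81% higher (26.7% of the calls were higher with arrays centred on their medians, against 38.7% here). In recurrent against primary cells 1 of 10 was called, with 1.8% of all genes called, 0.986% lower and 0.818% higher. In recurrent against residual cells none of the 10 was called by limma, and 5.78% of all genes were called, 2.19% lower and 3.58% higher. An unadjusted limma p under 0.05 was found there for 3 of the 10 (Sphk1, Cers6 and Cerk) and for 19.7% of all genes. In residual against primary cells this held for 4 of the 10 and 25.8% of all genes. In recurrent against primary cells it held for 1 of the 10 and 13.6% of all genes. The comparisons share arrays and are not independent of each other. With 10 genes, 2, 1 and 0 calls do not set the pathway apart from the shares of all genes called, so the results concern the single genes. The median log2 difference of the 10 was -0.22 for residual minus primary, -0.21 for recurrent minus primary and 0.14 for recurrent minus residual, beside medians over all genes of 0.03, -0.01 and -0.03. In a bulk sample, fewer cells that use a gene and less RNA of it per cell cannot be told apart.

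**Figure D1:**
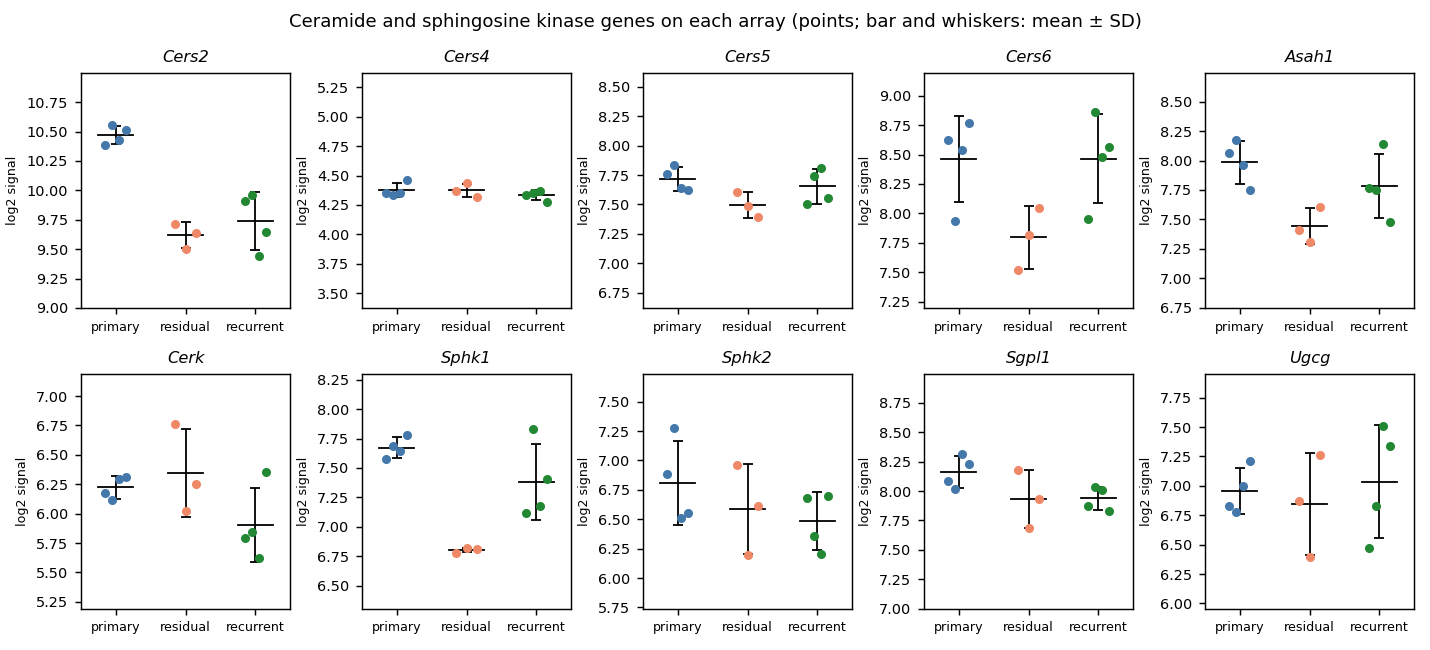
Log2 signal (y axis) of the 10 members on every array (points) in primary, residual and recurrent cells (x axis), with mean and SD as bar and whiskers; each panel has its own y range. The residual arrays of Sphk1 (6.78 to 6.82) and of Cers2 (9.50 to 9.72) lie below all primary arrays, and the recurrent arrays of Cers2 (9.44 to 9.96) do too.

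Of the enzymes that make ceramide, Cers2, the synthase for very-long-chain ceramides, changed most. It read 10.39, 10.55, 10.43 and 10.52 on the primary arrays, 9.72, 9.50 and 9.63 on the residual arrays and 9.91, 9.96, 9.44 and 9.65 on the recurrent arrays. All 7 arrays taken after withdrawal lay below all 4 primary arrays, and the residual and recurrent arrays overlapped. It was the 1 member whose recurrent and primary arrays did not overlap, as was so for 9.02% of all genes. The difference was -0.86 for residual minus primary (SE 0.14, adjusted p = 0.00259) and -0.73 for recurrent minus primary (SE 0.13, adjusted p = 0.0195). With arrays scaled to one median and interquartile range the residual difference was -0.63 and still passed (adjusted p = 0.0126). Of all genes 5.18% and 2.32% had a fall at least as large in these comparisons. Recurrent and residual cells did not differ at the threshold (difference 0.12, 95% interval -0.19 to 0.44, adjusted p = 0.705). The recurrent call was lost without primary 2 (adjusted p = 0.0593), primary 3 (0.0524) or primary 4 (0.0661), with differences of -0.71, -0.75 and -0.72.

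Cers6, a synthase for ceramides with palmitic acid, read 8.62, 7.93, 8.54 and 8.77 on the primary arrays, 7.52, 7.82 and 8.05 on the residual arrays and 7.95, 8.86, 8.48 and 8.57 on the recurrent arrays. Primary 2 and recurrent 1 lay within the range of the residual arrays, and the other primary and recurrent arrays lay above it. The difference was -0.67 for residual minus primary (95% interval -1.20 to -0.14, adjusted p = 0.101) and 0.67 for recurrent minus residual (0.14 to 1.20, adjusted p = 0.147), so neither passed. Without primary 2 the residual difference was -0.85 and passed (adjusted p = 0.0402). Recurrent and primary means were almost equal, at 8.47 and 8.46, with an interval of the difference from -0.49 to 0.49 (adjusted p = 0.999).

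Cers5, which like Cers6 makes ceramides with palmitic acid, read 7.76, 7.84, 7.64 and 7.62 on the primary arrays, 7.61, 7.49 and 7.39 on the residual arrays and 7.50, 7.74, 7.81 and 7.56 on the recurrent arrays. The residual arrays lay just below the primary ones without overlap, but the gap between the nearest arrays was small. The residual minus primary difference was -0.22 (95% interval -0.49 to 0.05, adjusted p = 0.306). Arrays did not overlap for 4 of the 10 members in this comparison, and for 24.8% of all genes. Cers4, a synthase for long and very long fatty acids, read 4.28 to 4.46 over all 11 arrays, near background, and its 3 differences lay between -0.04 and 0.00. An identical value was held by 3 of its arrays.

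Among the enzymes that use ceramide, Asah1 was nearest to a call. This acid ceramidase splits ceramide in the lysosome. It read 8.06, 8.17, 7.96 and 7.75 on the primary arrays, 7.41, 7.31 and 7.61 on the residual arrays and 7.77, 7.75, 8.14 and 7.48 on the recurrent arrays. Residual and primary arrays did not overlap, while the recurrent arrays spanned both ranges in part. The residual minus primary difference was -0.54 (SE 0.17, 95% interval -0.91 to -0.18, adjusted p = 0.0557) and missed the threshold. It passed without primary 4 (adjusted p = 0.0492), recurrent 3 (0.0320) or recurrent 4 (0.0439), and with arrays centred on their medians (0.0298). Without recurrent 3 or recurrent 4 the difference itself stayed at -0.54, so only its test changed. The difference shrank to -0.45 with arrays scaled to one median and interquartile range (adjusted p = 0.115). With quantile normalization it was -0.39 (adjusted p = 0.167), and neither of these passed. Recurrent cells lay between the others, with differences of -0.20 from primary (adjusted p = 0.644) and 0.34 from residual cells (adjusted p = 0.290).

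Cerk, which makes ceramide 1-phosphate, read 6.17, 6.11, 6.29 and 6.32 on the primary arrays, 6.76, 6.02 and 6.25 on the residual arrays and 5.79, 5.84, 5.62 and 6.35 on the recurrent arrays. The primary arrays were close together, residual 1 was the highest of all arrays, and 3 of the 4 recurrent arrays lay below every other array. Primary cells averaged 6.22 ± 0.10, residual cells 6.35 ± 0.38 and recurrent cells 5.90 ± 0.32 (mean ± SD, n = 4, 3 and 4). The differences were 0.12 for residual minus primary (95% interval -0.32 to 0.56, adjusted p = 0.768), -0.32 for recurrent minus primary (-0.73 to 0.09, adjusted p = 0.503) and -0.44 for recurrent minus residual (-0.89 to 0.00, adjusted p = 0.248). None passed, and the residual minus primary difference became -0.09 without residual 1.

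Ugcg, glucosylceramide synthase and the entry to glycosphingolipids, read 6.83, 6.77, 7.0 and 7.21 on the primary arrays, 6.87, 6.40 and 7.27 on the residual arrays and 6.47, 6.83, 7.51 and 7.34 on the recurrent arrays. Its recurrent arrays had the widest range of any member in any group, 1.04, and all 3 groups overlapped. Its differences of -0.11, 0.08 and 0.19 for residual minus primary, recurrent minus primary and recurrent minus residual did not pass (adjusted p = 0.85, 0.928 and 0.756). The widest of their 95% intervals ran from -0.68 to 0.47 and from -0.38 to 0.77, so changes of up to about these sizes were not excluded.

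Of the sphingosine kinases, Sphk1, the mainly cytosolic enzyme, read 7.57, 7.69, 7.64 and 7.78 on the primary arrays, 6.78, 6.82 and 6.81 on the residual arrays and 7.11, 7.83, 7.18 and 7.41 on the recurrent arrays. The residual arrays were within 0.0375 of each other and lay below all other arrays. Recurrent 2 was the highest array of all, and the other 3 recurrent arrays lay between the residual and primary ranges. The difference was -0.87 for residual minus primary (SE 0.16, 95% interval -1.23 to -0.51, adjusted p = 0.0049), and 5.06% of genes fell at least as far. With arrays scaled to one median and interquartile range it was -0.81 (adjusted p = 0.00798). For recurrent minus residual it was 0.58 (SE 0.16, 95% interval 0.22 to 0.94, adjusted p = 0.0627), and missed the threshold. Arrays did not overlap in this comparison for Sphk1 alone of the members, and for 15.5% of all genes. That difference passed without recurrent 1 (0.67, adjusted p = 0.0423). Leaving out each array in turn gave 0.43 to 0.67 for it, and over 21 alternative fits its adjusted p ran from 0.0423 to 0.172. Recurrent minus primary was -0.29 (95% interval -0.62 to 0.04, adjusted p = 0.447). The order of levels was therefore primary, recurrent, residual, and only the ends of it differed beyond the threshold.

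Sphk2, the kinase found mainly in the nucleus and mitochondria, read 6.88, 7.28, 6.51 and 6.56 on the primary arrays, 6.96, 6.20 and 6.61 on the residual arrays and 6.68, 6.35, 6.20 and 6.70 on the recurrent arrays. The 3 groups overlapped throughout. The differences were -0.22 for residual minus primary (95% interval -0.72 to 0.29), -0.32 for recurrent minus primary (-0.79 to 0.14) and -0.11 for recurrent minus residual (-0.61 to 0.40), with adjusted p of 0.623, 0.572 and 0.858. Whether the residual change of Sphk1 differed from that of Sphk2 was not tested.

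Sgpl1, the lyase that degrades sphingosine 1-phosphate, read 8.08, 8.02, 8.31 and 8.23 on the primary arrays, 8.18, 7.68 and 7.93 on the residual arrays and 7.88, 8.04, 8.01 and 7.83 on the recurrent arrays. Its levels overlapped in all comparisons. The differences were -0.23 for residual minus primary (95% interval -0.54 to 0.08, adjusted p = 0.346), -0.22 for recurrent minus primary (-0.51 to 0.06, adjusted p = 0.508) and 0.01 for recurrent minus residual (-0.30 to 0.32, adjusted p = 0.986).

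**Figure D2:**
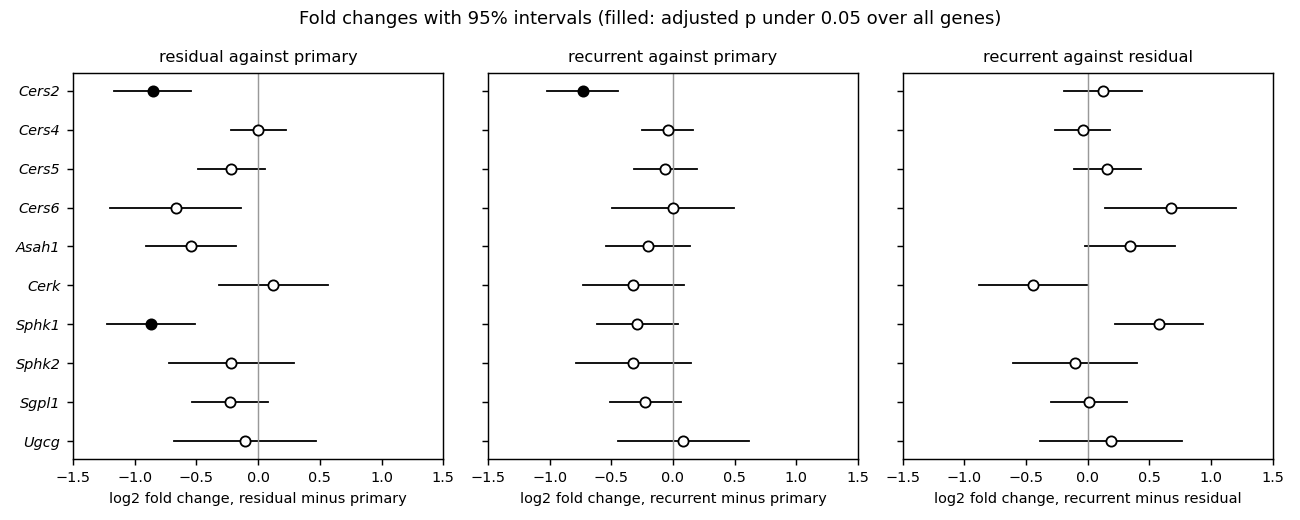
Log2 fold change (x axis) of each member (rows) in the 3 comparisons, with its 95% interval from limma as a line; filled points had an adjusted p under 0.05 over all genes. Cers2 is filled for residual minus primary (-0.86) and recurrent minus primary (-0.73), Sphk1 for residual minus primary (-0.87), and every other point is open.

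The other genes of sphingolipid metabolism were taken as 65 genes in 5 lists, of which 63 were measured. In residual against primary cells 4 were called higher and 7 lower, in recurrent against primary cells 1 higher and 3 lower, and in recurrent against residual cells 3 higher and 1 lower, together 12 different genes. These are 17.5%, 6.35% and 6.35% of the list, beside the 12.4%, 1.8% and 5.78% of all genes given above. The clearest changes were in glycosphingolipid enzymes: A4galt rose and Gla and B4galt5 fell after withdrawal. On none of the 11 arrays were 8 of the 63 genes above background, Sptlc3, Sptssb, Degs2, Smpd3, Cerkl, Acer1, Acer2 and Sgpp2.

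A4galt makes the glycosphingolipid globotriaosylceramide, and Gla, the lysosomal alpha-galactosidase, breaks it down. A4galt read 4.99, 6.14, 5.52 and 6.03 on the primary arrays, 7.83, 7.99 and 7.81 on the residual arrays and 6.80, 7.08, 7.03 and 6.84 on the recurrent arrays. The 3 groups did not overlap, with residual highest and primary lowest. Its difference was 2.21 for residual minus primary (SE 0.24, adjusted p = 0.000121), 1.27 for recurrent minus primary (adjusted p = 0.0142) and -0.94 for recurrent minus residual (adjusted p = 0.0384). Gla read 8.55, 8.74, 8.63 and 8.10 on the primary arrays, 6.81, 6.85 and 6.94 on the residual arrays and 7.27, 7.08, 7.66 and 7.58 on the recurrent arrays. Its groups did not overlap either, in the opposite order. Relative to primary cells, Gla fell by 1.64 in residual cells (SE 0.18, adjusted p = 0.000165). In recurrent cells its difference from primary cells was -1.11 (adjusted p = 0.00658). Its recurrent minus residual difference was 0.53 and did not pass (adjusted p = 0.125). Without primary 3 the A4galt calls of recurrent against primary (adjusted p = 0.0519) and of recurrent against residual cells (0.0580) were lost, and without any 1 of the 7 residual and recurrent arrays the second was lost too (0.0577 to 0.115).

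B4galt5, a lactosylceramide synthase that acts on the product of Ugcg, read 11.11, 10.96, 11.03 and 11.10 on the primary arrays, 9.68, 9.90 and 9.27 on the residual arrays and 9.19, 9.56, 8.95 and 8.97 on the recurrent arrays. All arrays after withdrawal lay at least 1 log2 unit below all primary arrays. It fell by 1.43 in residual cells (SE 0.18, adjusted p = 0.000405) with a difference of -1.88 in recurrent cells (SE 0.17, adjusted p = 0.000252), that is 2.70-fold and 3.69-fold below primary cells. B4galt6, the other enzyme of this step, was higher in recurrent than in residual cells, at 8.04 ± 0.24 and 7.44 ± 0.04 (mean ± SD, n = 4 and 3, difference 0.61, adjusted p = 0.0302), a call lost without any 1 of the residual arrays, recurrent 1 or recurrent 3 (0.0677 to 0.0885). Of the lysosomal enzymes, Glb1, a beta-galactosidase, was lower in residual than in primary cells (difference -0.51, adjusted p = 0.0113), a call lost with quantile normalization (-0.37, adjusted p = 0.0505). It was higher in recurrent than in residual cells (0.52, adjusted p = 0.0201, lost without residual 2, residual 3 or recurrent 4 at 0.0578, 0.0609 and 0.0502).

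In the list of sphingomyelin turnover and ceramide transfer, both sphingomyelin synthases, which consume ceramide, fell in residual cells. Sgms2 read 8.35, 7.97, 8.20 and 8.18 on the primary arrays, 6.54, 6.49 and 7.03 on the residual arrays and 8.72, 8.55, 7.68 and 7.23 on the recurrent arrays. The residual arrays lay below all others, and the recurrent arrays lay on both sides of the primary ones. Its difference was -1.49 for residual minus primary (SE 0.31, adjusted p = 0.00954) and 1.36 for recurrent minus residual (adjusted p = 0.0267, lost without residual 1, residual 2, recurrent 1 or recurrent 2 at 0.0504 to 0.0924). Sgms1 fell by 0.91 in residual cells relative to primary cells (adjusted p = 0.0247), and the call was lost without primary 1, primary 3, primary 4, residual 1 or residual 3 (0.0520 to 0.0936). Smpd2, a neutral sphingomyelinase, and Smpdl3a, a relative of acid sphingomyelinase, rose by 0.59 and 0.87 in residual cells relative to primary cells (adjusted p = 0.0379 and 0.0352). Smpd2 lost its call without primary 1, primary 3 or any residual array (0.0519 to 0.138), and with arrays centred on their medians (0.0745). Smpdl3a lost its call without primary 1, primary 3, primary 4, residual 1 or residual 2 (0.0504 to 0.119). It also lost it with centring (0.0531), scaling (0.0520) and arrays of the compared groups alone (0.0735). Smpdl3a was above background on 3 of the 4 primary arrays (3.63 to 4.76). It read 4.16 to 4.36 on the recurrent arrays, near background, and 4.77 to 5.36 on the residual arrays.

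Of 13 measured genes of de novo ceramide synthesis, Degs1, the desaturase that turns dihydroceramide into ceramide, was the 1 called. It read 10.27, 10.37, 10.27 and 10.28 on the primary arrays, 9.47, 9.77 and 9.55 on the residual arrays and 9.98, 10.07, 9.63 and 9.82 on the recurrent arrays, so that all arrays after withdrawal lay below the primary ones. The difference was -0.70 for residual minus primary (SE 0.13, adjusted p = 0.00552) and -0.42 for recurrent minus primary (adjusted p = 0.132). Among 10 other ceramidases and enzymes that remove sphingosine 1-phosphate, Plpp2, a lipid phosphate phosphatase, fell by 1.02 in residual cells (adjusted p = 0.00202) with a difference of -0.73 in recurrent cells (adjusted p = 0.0345), both relative to primary cells. The second of these calls was lost without any primary array or recurrent 3 (0.0600 to 0.1005). Of 7 genes for export of sphingosine 1-phosphate and its receptors, limma called none in any comparison. An unadjusted p under 0.05 was found for 1 of the 7 in residual against primary cells, where 25.8% of all genes had one. In recurrent against primary cells it was found for 0 of the 7 (13.6% of all genes). In recurrent against residual cells it was found for 1 of the 7 (19.7% of all genes).

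**Figure D3:**
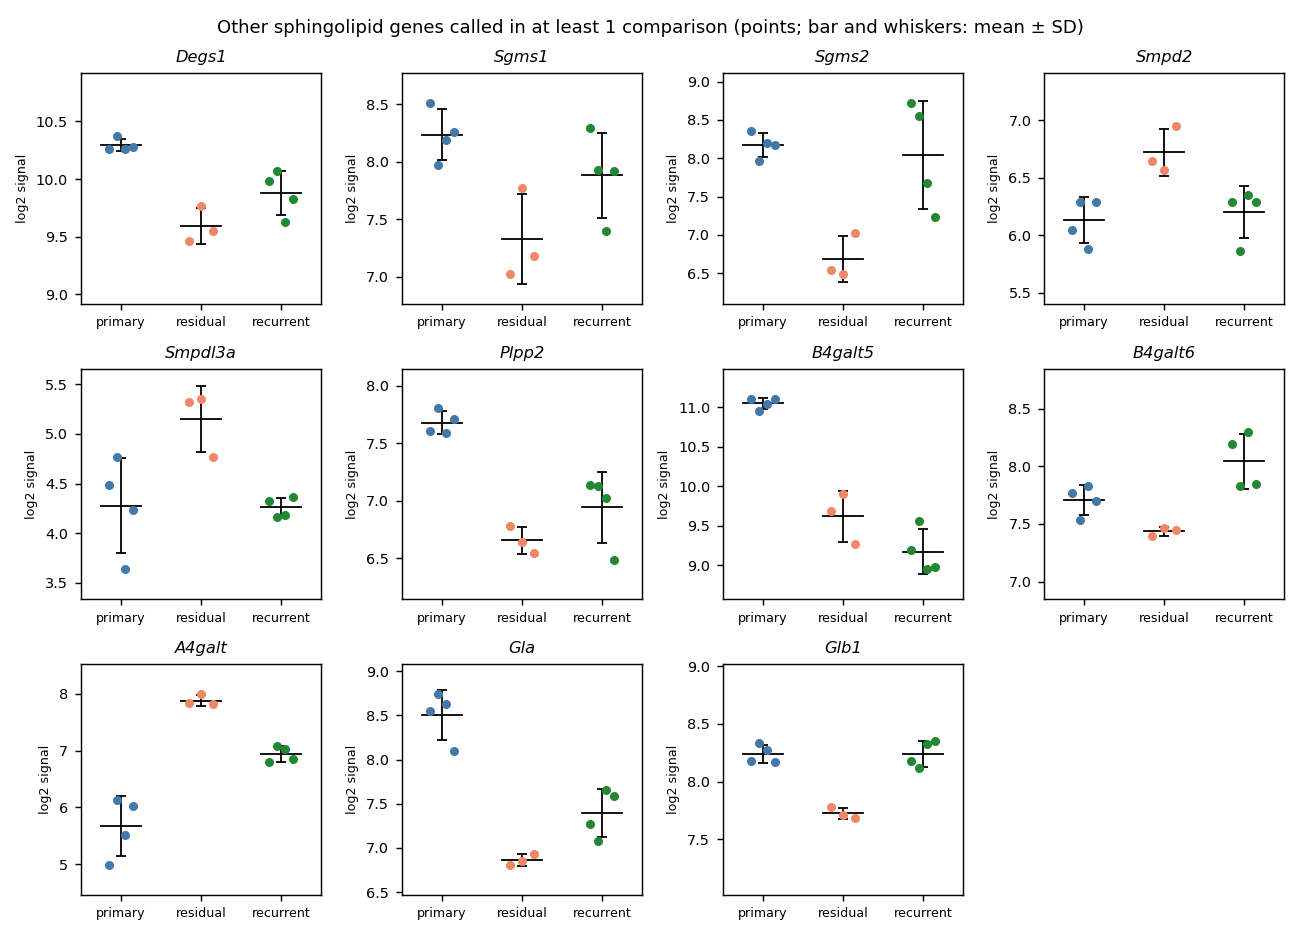
Log2 signal (y axis) on every array (points) of 11 of the other sphingolipid genes that were called in at least 1 comparison, in primary, residual and recurrent cells (x axis), with mean and SD as bar and whiskers; each panel has its own y range. A4galt is highest on the residual arrays (7.81 to 7.99), where Gla is lowest (6.81 to 6.94), and B4galt5 is below 10 on every array after withdrawal.

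Other gene groups moved across the same arrays. The mean log2 signal of 16 cell division genes was 8.03 to 8.33 on the primary arrays, 4.38 to 4.93 on the residual arrays and 7.49 to 7.92 on the recurrent arrays, an order of stages like that of Sphk1. All 16 were lower in residual than in primary cells, and all 16 higher in recurrent than in residual cells. Markers of macrophages and monocytes, 11 measured, averaged 6.30 to 7.10, 5.24 to 6.10 and 5.62 to 6.79, with 5 called lower in residual than in primary cells. Of the 11, 8 were above background on all residual arrays, and Adgre1 and Itgam were above it on none. Cd14, Tyrobp and Fcer1g, the brightest, were at 7.72 ± 0.24, 6.73 ± 0.61 and 6.28 ± 0.54 in residual cells and at 9.18 ± 0.23, 8.41 ± 0.56 and 7.61 ± 0.52 in primary cells.

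Markers of fibroblasts, 10 measured, averaged 5.94 to 6.49 on the primary arrays, 8.42 to 9.66 on the residual arrays and 8.17 to 8.97 on the recurrent arrays, so they separated the primary arrays from all others, as Cers2 did in the other direction. Relative to primary cells 9 of them were called higher in residual cells and 6 in recurrent cells. The brightest were Serpinf1, Dcn and Col1a2, and Fap was above background on no primary array. Markers of luminal epithelium, 10 measured, averaged 5.77 to 5.98, 5.48 to 6.32 and 5.32 to 5.66 on the primary, residual and recurrent arrays, but their summed linear signal was 785 to 1498 on the residual arrays, against 2673 to 3199 on the primary arrays. The brightest of them, Krt18, Krt8 and Cldn3, were the 3 called lower in residual than in primary cells. Krt8 was at 8.41 ± 0.21 in residual and 10.08 ± 0.07 in primary cells, and Cldn3 at 6.62 ± 0.62 and 8.24 ± 0.16. The other 7 luminal markers all had a positive difference, 1 of them called, and the median over the 10 was 0.47. Of these 7, Epcam, Cldn4, Elf5 and Muc1 were above background on no primary array. The 8 markers of basal epithelium averaged 4.86 to 5.10, 5.26 to 5.53 and 4.96 to 5.29 on the same groups of arrays, a mean that joined opposite changes. Krt14 was called higher in residual than in primary cells, at 10.36 ± 0.30 and 7.63 ± 0.46, and Itga6 lower, at 5.97 ± 0.57 and 8.59 ± 0.12. Acta2 averaged 8.14 ± 0.40 in residual, 5.69 ± 0.11 in primary and 8.57 ± 2.25 in recurrent cells. It was not called in residual against primary cells, in a fit whose estimate of spread is shared by the 3 groups. The 8 endothelial markers averaged 3.28 to 3.61, 3.40 to 3.59 and 3.49 to 3.99, the 8 adipocyte markers 3.77 to 4.02, 3.60 to 4.04 and 3.72 to 4.53, and the 8 lymphocyte markers 3.33 to 3.42, 3.44 to 3.57 and 3.19 to 3.56. Of the endothelial markers, Kdr, Tek, Emcn, Cldn5, Tie1 and Vwf were above background on no array. Cdh5, the brightest, averaged 4.91 ± 0.60, 4.42 ± 0.28 and 6.21 ± 2.62 in primary, residual and recurrent cells (mean ± SD, n = 4, 3 and 4). Pecam1 averaged 3.82, 4.15 and 4.43, and Vwf was the third brightest. The summed linear signal of the 8 endothelial markers was 1181 on recurrent 3 and at most 134 on every other array. Of the lymphocyte markers Cd3e, Cd3g, Cd79a, Ncr1 and Ms4a1 were above background on no array, nor were Cidec, Lep and Retn of the adipocyte markers. The brightest lymphocyte markers were Klrb1c, Nkg7 and Ncr1. Klrb1c averaged 4.45, 5.02 and 4.80 in primary, residual and recurrent cells, and Nkg7 3.84, 4.35 and 4.01. The brightest adipocyte markers were Lipe, Fabp4 and Pparg. Lipe averaged 5.33, 5.35 and 5.24 in the same order, Fabp4 5.40, 4.03 and 5.07, and Pparg 4.46, 4.42 and 4.57. The part of cell division, of macrophages, of fibroblast-marked cells and of the epithelial markers in the levels of Sphk1, Cers2, A4galt, Gla or B4galt5 was not tested.

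**Figure D4:**
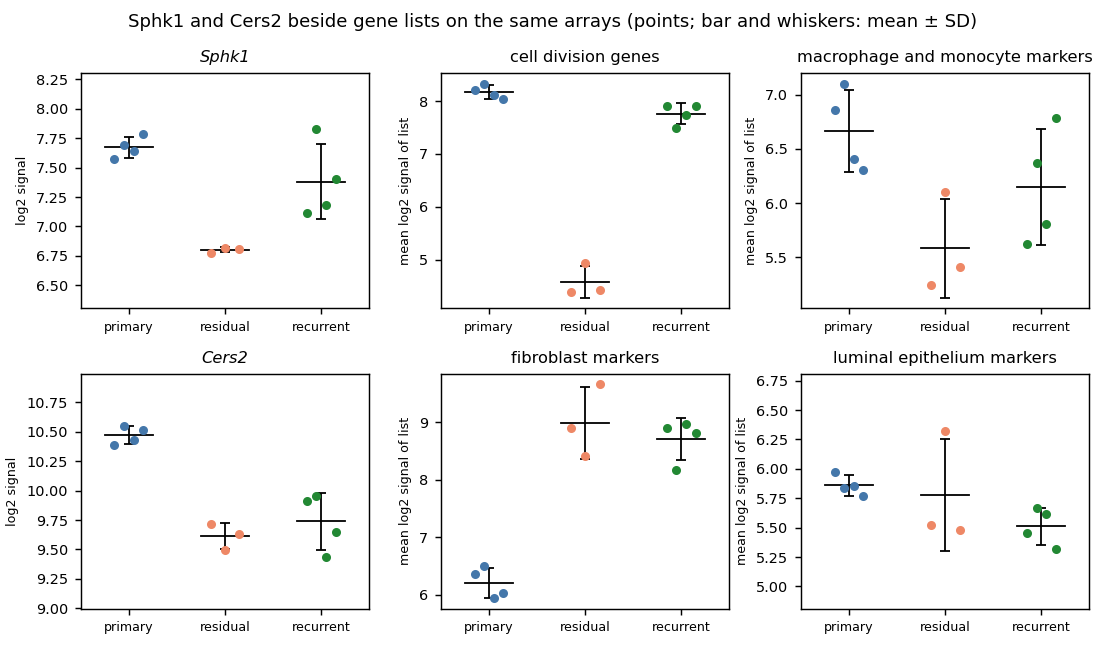
Log2 signal of Sphk1 and Cers2 (left panels) and mean log2 signal of 4 gene lists (other panels) on every array (points) in primary, residual and recurrent cells, with mean and SD as bar and whiskers and a separate y range in each panel. The cell division genes are lowest on the residual arrays (4.38 to 4.93), and the fibroblast markers are lowest on the primary arrays (5.94 to 6.49).

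No member reached a called change of 1 log2 unit, so the rule for naming genes of like pattern selected none. For the members that were called, the nearest genes were looked up all the same, a choice made after their values were seen. Likeness was the root mean square difference over the 11 arrays after each gene was centred on its own mean, among 19427 genes. Nearest to Sphk1 was Ran, the GTPase of nuclear transport, at 0.151 log2 units, followed by Klhl2 (0.156) and Kdm3a, a histone demethylase (0.159). Ran averaged 10.24, 9.21 and 9.81 in primary, residual and recurrent cells. Nearest to Cers2 were Itprid2 (0.127), Pmpca, a subunit of the mitochondrial processing peptidase (0.130), and the kinase Nek7 (0.131).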

How the data were processed

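Total RNA of GFP-positive tumour cells was measured on 11 Affymetrix arrays. The deposited values are log2 signals, 1 row per Entrez gene, made by the authors with RMA in R 3.0.2, per the submitters' processing notes. RMA forces arrays towards one distribution, so values are relative within an array. Of 24479 rows, 23281 had a symbol in the platform annotation, 556 were named through the Entrez identifier, 642 stayed unnamed and 2 sharing a symbol were dropped, which left 23835 genes. Values were not normalized again. One limma fit (3.58.1, R 4.3.3) held the 3 groups (8 residual degrees of freedom), with eBayes, two-sided tests and Benjamini-Hochberg adjustment over all 23835 genes. Calls were made below an adjusted p of 0.05, and the fit was tested on simulated data. The members and lists were chosen with earlier results of these data known.

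All members are named, as are the other pathway genes called in a comparison, except 1 that is not reported here. Of each marker list the 3 brightest are named, and others where they were never above background. The nearest genes by pattern were to be named for called members with a change of at least 1 log2 unit. Cers1 of the pathway lists and Lyz2 of the macrophage list were among the genes not matched. Same-numbered arrays of different groups did not deviate together (10 pairs, r of -0.08 to 0.02, none over 0.1), so arrays were not treated as paired. Alternatives were arrays of the compared groups alone, a replicate block, centring, quantile normalization, scaling, a filter on dim genes (13712 kept), eBayes with trend or robust, array weights (statmod 1.5.0), unnamed rows included, a threshold of 0.01 and leaving out each array. Python 3.11.15 and matplotlib 3.10.9 were used for tables and plots.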

Additional observations from a re-analysis of the deposited data

Results flagged for a closer look

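In 4 of 44 gene-by-group sets of 4 arrays, 1 array lay far from the other 3 by Dixon's criterion, which chance alone meets in about 1 in 20 sets. Cers4 read 4.46 on primary 4, against 4.34 to 4.35 on the other primary arrays, all near background. Degs1 read 10.37 on primary 2, against 10.27 to 10.28. Smpd2 read 5.87 on recurrent 2, against 6.29 to 6.35, and Plpp2 read 6.49 on recurrent 4, against 7.03 to 7.14. The Smpd2 value of 6.29 was identical on recurrent 1, recurrent 4, primary 2 and primary 4.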

How the results depend on the processing

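The residual against primary calls of Sphk1 and Cers2 held at a threshold of 0.05 under all 21 alternatives to the fit, with differences of -0.96 to -0.74 and -0.95 to -0.63. Asah1 was called there in 7 of the 21. The cause of the changes below was not tested. At an adjusted p under 0.01, 1375 genes were called in residual against primary cells, 142 genes and 0 members in recurrent against primary cells and 521 genes in recurrent against residual cells. With the replicate block, 277 genes and 0 members were called in recurrent against primary cells (Cers2 at an adjusted p of 0.0587) and 872 genes in recurrent against residual cells. Arrays of the compared groups alone gave 609 in the last. Leaving out 1 array gave 203 to 420 genes and 0 to 1 members in recurrent against primary cells, the fewest without primary 4 (203), primary 1 (207), primary 3 (211) and primary 2 (225), and 0 to 1 members in recurrent against residual cells. Sphk1 was the 1 member called in that comparison with median-centred arrays (adjusted p = 0.0437) and with dim genes left out (0.0481). Scaling to one median and interquartile range moved the median of all genes by -0.101 in residual minus primary.

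Each difference that changed sign was of a member not called in that comparison. For residual minus primary, Cers4 became -0.0906 with centring, -0.0849 with quantile normalization, -0.0899 with scaling and -0.00619 with array weights, and Ugcg 0.00749 with quantile normalization. For recurrent minus primary, Cers6 became -0.0502 with centring and -0.0343 with weights. For recurrent minus residual, Sgpl1 became -0.0801 with quantile normalization, -0.102 with scaling and -0.00702 with weights, and Cers2 -0.0597 with scaling. Leaving out 1 array gave, for residual minus primary, -0.0858 to 0.283 for Cerk, -0.0280 to 0.0301 for Cers4 and -0.317 to 0.116 for Ugcg. It gave -0.176 to 0.173 for Cers6 and -0.0743 to 0.273 for Ugcg in recurrent minus primary. In recurrent minus residual it gave -0.302 to 0.0794 for Sphk2, -0.0323 to 0.401 for Ugcg and -0.116 to 0.130 for Sgpl1. Some alternatives, such as eBayes with trend or leaving out an array of the third group, leave a difference unchanged. Only the side of the threshold could change under those. Of 630 recomputed differences of members, 587 kept direction and side of the threshold. Of 399 for the other pathway calls, 330 did and 69 missed the threshold. Among these, the residual against primary calls of Glb1, Sgms1 and Smpd2 were lost with the replicate block (adjusted p = 0.0536, 0.0598 and 0.0720), and those of Glb1 and Sgms1 with quantile normalization (0.0505 and 0.0661).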
